A study of Mus musculus with 6 samples.

Results

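The genes described here encode parts of the desmosome and of gap junctions, and were followed in the mouse uterus after a single injection of estradiol. The members were the 9 genes Dsp, Jup, Pkp1, Perp, Dsc2, Dsg2, Gja1, Gjb2 and Gjb5, chosen by name, out of 8251 genes that the array reads with a single annotated symbol. All 9 were found, through 14 probe sets, and each probe set is given separately. Of the members, 5 had 2 probe sets and 4 had 1. A probe set is a group of short oligonucleotides that together read one transcript, and 2 probe sets of a gene on the same arrays are technical repeats and not replicates.

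All groups were uteri of C57BL/6 female mice, 10 to 11 weeks old, that had been ovariectomised and were killed 7 days later. The vehicle group received vehicle under the skin 24 h before sacrifice, and the other groups received 0.05 µg of estradiol per mouse and were killed after 1 h, 3 h, 6 h, 12 h or 24 h. RNA came from pooled whole uteri, and each group was read by 1 Affymetrix U74Av2 array, so no group had a replicate, no difference was tested and every fold describes a pair of arrays. Only the 24 h comparison was matched to vehicle in time since injection, and at earlier times the injection and estradiol cannot be told apart as a source of a difference. In whole tissue, fewer cells of a type and less RNA per cell cannot be told apart.

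Desmosomes are spot-like junctions that join neighbouring epithelial cells and heart muscle cells and anchor their keratin or desmin filaments. Desmosomal cadherins (desmogleins and desmocollins) bridge the gap between the cells, the armadillo proteins plakoglobin and plakophilin bind their tails inside the cell, and desmoplakin links this plaque to intermediate filaments. Connexins assemble into channels through which neighbouring cells exchange ions and small molecules. In the uterus, connexin 43 is best known from muscle and stroma and connexin 26 from the lining epithelium, and both are known to respond to ovarian steroids.

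Signal is the MAS5 intensity on a linear scale, and a floor of 142.8 was set at the 40th percentile over all arrays. Where the dimmer of a pair of arrays lay under the floor, the fold is given as "at least". Where both lay under it, no fold is printed. A probe set was counted as higher or lower from 2-fold on. One that lay less than 2-fold above the floor in vehicle could therefore not be counted as lower. Across the arrays for vehicle, 1, 6, 12 and 24 h, Spearman's rho over probe sets was 0.929 to 0.968 for the 10 pairs, while the array labelled 3 h reached 0.843 to 0.857 with any of these. That array went against its label in several markers, which are described with its values further on, and it is kept apart from the time course throughout.

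Where RefSeq's promoter table held a member (5 of 9), the 250 bases before the annotated start were searched on both strands. The letters searched were the AP-1 motif TGANTCA, the full estrogen response element (GGTCA, any 3 bases, TGACC), its single arm GGTCA, which the full element contains, and the GC box GGGCGG. The sequences are shown because the connexin genes Gja1 and Gjb2 had the earliest and the highest late difference from vehicle among the connexins, and because Dsp and Jup encode the plaque proteins that were higher late. They are from GRCm38.p6, at chr10:56377050-56377299 (+ strand) for Gja1, chr14:57104703-57104952 (- strand) for Gjb2, chr13:38151044-38151293 (+ strand) for Dsp and chr11:100397791-100398040 (- strand) for Jup. Capitals mark the matches.
Gja1: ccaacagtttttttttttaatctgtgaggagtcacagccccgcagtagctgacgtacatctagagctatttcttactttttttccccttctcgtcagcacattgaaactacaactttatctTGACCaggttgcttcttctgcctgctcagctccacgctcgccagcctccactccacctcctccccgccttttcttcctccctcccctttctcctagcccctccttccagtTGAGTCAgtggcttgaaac
Gjb2: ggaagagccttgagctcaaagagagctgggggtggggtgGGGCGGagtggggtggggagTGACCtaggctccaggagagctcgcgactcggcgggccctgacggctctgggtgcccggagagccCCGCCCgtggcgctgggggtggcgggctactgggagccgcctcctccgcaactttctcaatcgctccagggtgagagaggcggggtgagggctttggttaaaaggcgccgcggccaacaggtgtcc
Dsp: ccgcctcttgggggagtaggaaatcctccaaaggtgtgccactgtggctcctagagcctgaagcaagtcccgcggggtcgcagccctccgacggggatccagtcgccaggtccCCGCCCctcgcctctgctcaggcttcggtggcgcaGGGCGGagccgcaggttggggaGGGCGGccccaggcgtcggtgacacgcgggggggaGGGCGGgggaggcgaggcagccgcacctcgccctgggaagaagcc
Jup: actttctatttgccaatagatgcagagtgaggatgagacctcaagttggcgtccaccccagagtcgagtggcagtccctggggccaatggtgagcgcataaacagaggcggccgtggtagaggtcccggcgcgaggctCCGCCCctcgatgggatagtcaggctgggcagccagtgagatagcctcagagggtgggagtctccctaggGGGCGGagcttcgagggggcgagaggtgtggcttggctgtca

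Of these 4 windows and that of Gjb5, the Gja1 window alone held the AP-1 letters, as TGAGTCA from 19 to 13 bases before the start, and 6.75% of the 32851 promoter windows in the table held them. The full estrogen response element was in none of the 5 and in 0.0639% of all windows. The single arm occurred once each in Gja1, Gjb2 and Gjb5 and in 35.2% of all windows. The GC box occurred 4 times in Dsp, 2 times in Jup and 2 times in Gjb2, and in 32.7% of all windows. These matches are letters in a window and describe no binding.

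More of the desmosome and connexin probe sets stood 2-fold above vehicle at 6, 12 and 24 h than at 1 h. None was counted as 2-fold below it on these arrays, and the floor kept some from being counted so. At 1 h, 1 of the 14 probe sets was at least 2-fold higher, a probe set of the connexin 43 gene Gja1, against 1.08% of the 7977 probe sets measured. At 6 h, 7 of 14 were higher, from Pkp1, Dsc2, Dsg2, Gja1 and Gjb2, against 6.68% of all measured. At 12 h, 7 of 14 were higher, from Dsp, Pkp1, Dsc2, Gja1 and Gjb2, against 6.69%. At 24 h, 9 of 14 were higher, from 7 of the 9 genes, against 3.49%, and only Dsg2 and Gjb5 had no probe set among them. The shares of all probe sets that were 2-fold lower were 0.552%, 8.39%, 7.25% and 3.75% at these times.

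Not all of the 14 probe sets gave a value: 2 lay below the floor on every array. Of the 14, 11 were measured at 1 h and 12 at each of 6, 12 and 24 h, while the shares above are over measured probe sets only. Both Dsc2 probe sets lay below the floor in vehicle. They passed only through the arrays on which they were high, and could only be called higher. Gjb5 (104016_at), Gja1 100065_r_at and Dsg2 104480_at, at 228.1, 171.1 and 151.8 in vehicle, lay less than 2-fold above the floor. These too could not be counted as lower. The members were named with earlier results of these data known, so these counts describe them and support nothing further. With the 1 h array in place of vehicle as the reference, the count at 6 h was 4, and with the floor at the 60th percentile it was 3.

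**Figure D1:**
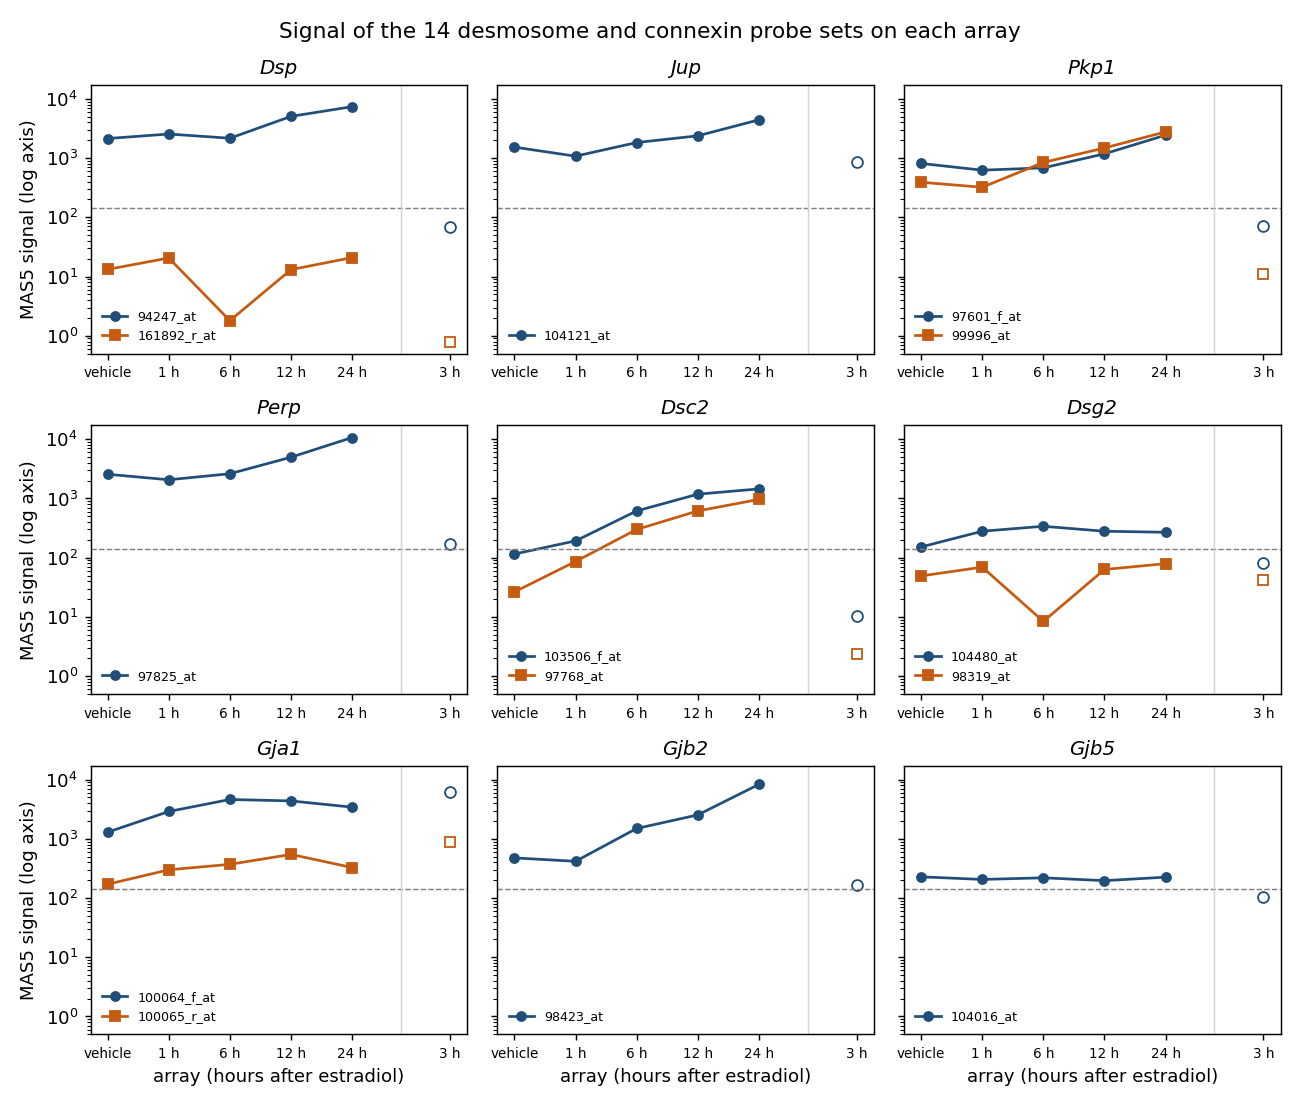
MAS5 signal (log axis) of each of the 14 probe sets on the arrays for vehicle and 1, 6, 12 and 24 h, with the array labelled 3 h as an open symbol to the right of the grey line; the dashed line is the floor of 142.8, and each point is 1 array, so there is no error bar. Dsp, Jup, Pkp1, Perp, Dsc2 and Gjb2 are highest at 24 h, Gja1 is highest of the time course at 6 h (100064_f_at) or 12 h (100065_r_at), and Gjb5 stays between 196.7 and 228.1. On the array labelled 3 h, Gja1 is above and the brighter probe set of each other gene below all its time course values.

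Desmoplakin, the protein that ties the desmosomal plaque to keratin, was read by the Dsp probe set 94247_at at 2141 in vehicle, 2550 at 1 h, 2166 at 6 h, then 5068 and 7388 at 12 and 24 h. The vehicle, 1 h and 6 h arrays were thus close together and the 12 h and 24 h arrays stood clear above them. The fold over vehicle was 1.01 at 6 h, 2.37 at 12 h and 3.45 at 24 h, and the step from 6 to 12 h alone was 2.34-fold. The other Dsp probe set, 161892_r_at, lay between 0.8 and 20.9 on all 6 arrays, below the floor, and gave no fold. The suffix of such a probe set marks one for which some design rules were relaxed.

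Plakoglobin, encoded by Jup, is shared by desmosomes and adherens junctions and is a close relative of beta-catenin. Its probe set 104121_at read 1532 in vehicle, 1078 at 1 h, 1831 at 6 h, 2378 at 12 h and lastly 4423 at 24 h. It was lower than vehicle at 1 h by a factor of 1.42, under the 2-fold minimum, and the 24 h array was the only one at least 2-fold away, at 2.89-fold higher. The step from 12 to 24 h was 1.86-fold.

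Plakophilin 1, the plaque protein of Pkp1 known chiefly from stratified epithelium, was read by a pair of probe sets. The brighter, 97601_f_at, read 812.3 in vehicle, 625.3 at 1 h, 684.3 at 6 h, then 1182 and 2440 at 12 and 24 h. The other, 99996_at, read 391.2, 322.0, 845.4, 1483 and 2772 on the same arrays. Both were lowest at 1 h and highest at 24 h, but they differed at 6 h, where the first was 1.19-fold lower than vehicle and the second 2.16-fold higher. At 12 h they stood at 1.45-fold and 3.79-fold, and at 24 h at 3.00-fold and 7.09-fold higher, so that only at 24 h were both past 2-fold.

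Perp, a tetraspan membrane protein that desmosomes of stratified epithelium need and that is a target of p53 and p63, read 2562 in vehicle. Its signal was 2069 at 1 h, 2615 at 6 h, 4974 at 12 h and lastly 10696 at 24 h. As for Dsp, the first 3 of these arrays were close together and the last 2 higher. The fold was 1.94 at 12 h, just under the minimum, and 4.17 at 24 h, where its log2 ratio ranked 51 from the highest of 8018 probe sets.

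Among the desmosomal cadherins, the desmocollin gene Dsc2 had the highest folds of the desmosome genes here, and both of its probe sets gave the same order of arrays. The probe set 103506_f_at read 115.2 in vehicle, below the floor, 192.0 at 1 h, 615.5 at 6 h, then 1180 and 1450 at 12 and 24 h. Signal was thus higher on each later array, by at least 4.31-fold over vehicle at 6 h and at least 10.2-fold at 24 h. The probe set 97768_at read 26.4 and 86.2 in vehicle and at 1 h, both below the floor, and 299.4, 615.5 and 963.0 at 6, 12 and 24 h, which are at least 2.10-fold, 4.31-fold and 6.74-fold above vehicle. Since vehicle lay below the floor for both, the sizes moved with it: with the floor at the 20th percentile 97768_at stood at a log2 ratio of 4.60 at 24 h, and with the floor at the 60th percentile at 1.45. Under that higher floor 103506_f_at stood at 0.80 at 6 h and 97768_at at 0.80 at 12 h, both under 2-fold.

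The desmoglein gene Dsg2, whose protein is the widespread desmoglein of simple epithelium, was weak. Its probe set 104480_at read 151.8 in vehicle, 279.7 at 1 h, 339.1 at 6 h, 279.6 at 12 h and lastly 268.7 at 24 h. All 4 estradiol arrays stood above vehicle, by 1.84-fold, 2.23-fold, 1.84-fold and 1.77-fold, and the 24 h value was the lowest of the 4. The value in vehicle lay just above the floor, and with the 1 h array as the reference the log2 ratio at 6 h was 0.28. The other probe set, 98319_at, lay between 8.4 and 79.3, below the floor on every array.

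Connexin 43, encoded by Gja1, was the only member past 2-fold at 1 h, through 1 of its probe sets, while Dsg2 stood at 1.84-fold. The Gja1 probe set 100064_f_at read 1295 in vehicle, 2894 at 1 h, 4616 at 6 h, then 4366 and 3425 at 12 and 24 h. It was 2.23-fold higher at 1 h, where its log2 ratio of 1.16 ranked 43 from the highest of 7977 probe sets, and 3.56-fold, 3.37-fold and 2.64-fold higher at the later times. The dimmer probe set 100065_r_at read 171.1, 299.8, 370.8, 545.4 and 327.6, which is 1.75-fold, 2.17-fold, 3.19-fold and 1.91-fold above vehicle. Both were above vehicle on all 4 arrays and lower at 24 h than at 12 h, by 1.27-fold and 1.67-fold. They differed in which array was highest. Since Gja1 was already higher at 1 h, no later value of 100064_f_at was 2-fold above the 1 h array, with log2 differences of 0.67, 0.59 and 0.24 at 6, 12 and 24 h.

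Connexin 26, encoded by Gjb2, had the highest fold of all members, at 24 h. The probe set 98423_at read 476.5 in vehicle and 417.0 at 1 h, then 1495 at 6 h, 2532 at 12 h and 8301 at 24 h. Vehicle and 1 h differed by 1.14-fold, and each later array stood above the one before it. Against vehicle it was 3.14-fold higher at 6 h, 5.31-fold at 12 h, and 17.4-fold at 24 h. The log2 ratio at 24 h, 4.12, ranked 9 from the highest of 8018 probe sets. The step from 12 to 24 h was 3.28-fold, and 3.06% of the 7902 probe sets measured on those arrays were 2-fold higher at 24 h than at 12 h. Gjb2 thus had its highest signal on the array on which Gja1 was below its 12 h value.

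Gjb5 encodes a connexin known from skin and placental trophoblast. Its probe set 104016_at read 228.1 in vehicle, 206.1 at 1 h, 219.6 at 6 h, 196.7 at 12 h and lastly 225.2 at 24 h. These 5 values lay within a factor of 1.16 of vehicle, and the signal was near the floor, so a difference in a weakly hybridising probe set could be missed. Among the 9 genes it was the only one with no array of the time course past 1.5-fold from vehicle.

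**Figure D2:**
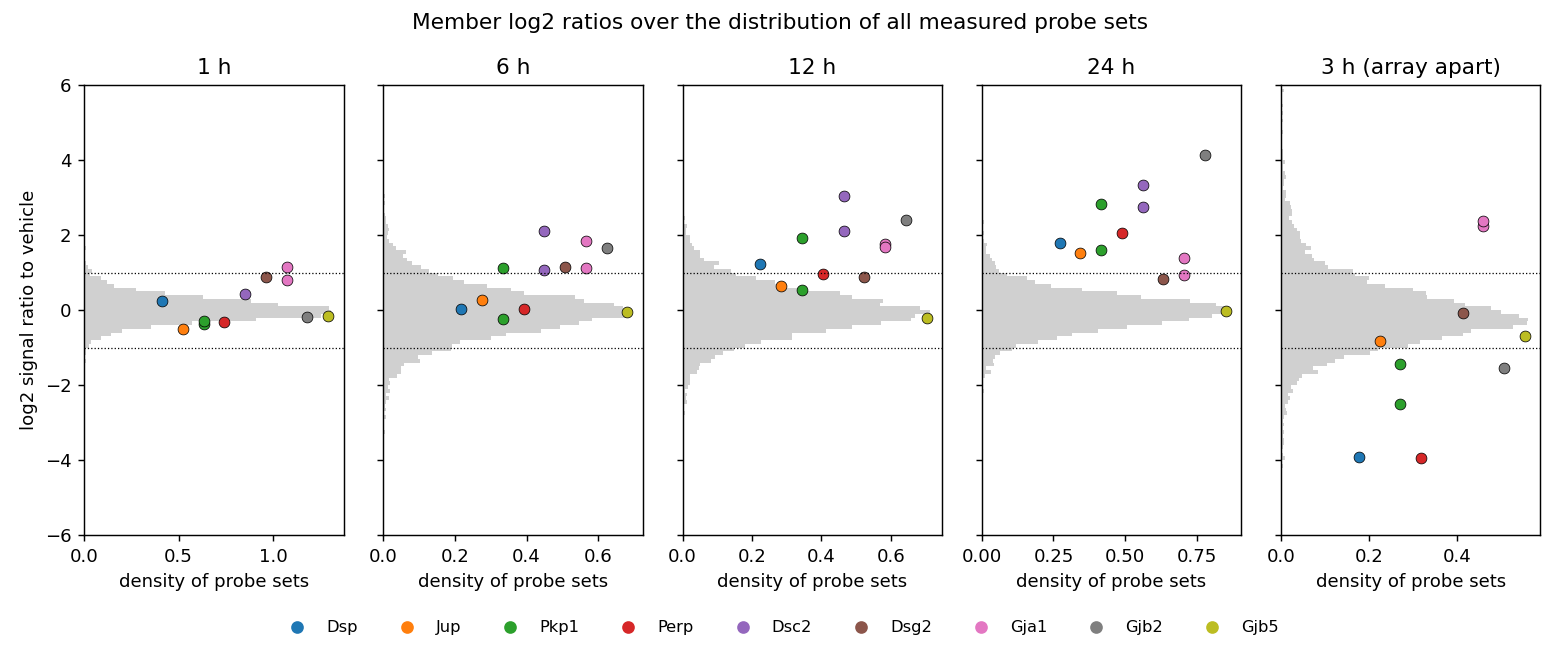
Log2 signal ratio to vehicle of each measured member probe set (coloured points, spread sideways by gene only for legibility) over the distribution of all probe sets measured on the same arrays (grey, density on the horizontal axis), with dotted lines at 2-fold. The points lie within the grey distribution at 1 h except those of Gja1 and Dsg2 near its upper edge, at 24 h all but Dsg2, Gjb5 and 1 Gja1 point lie above the upper dotted line, and on the array labelled 3 h Dsp and Perp lie near -3.9 while Gja1 lies above 2.

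The order in which the members first passed 2-fold therefore began with 1 Gja1 probe set at 1 h. At 6 h came Dsc2, Dsg2, Gjb2, the other Gja1 probe set and 1 Pkp1 probe set. Dsp came at 12 h, and Jup, Perp and the other Pkp1 probe set at 24 h. Under the floor at the 60th percentile, Dsc2 was not past 2-fold at 6 h, nor was Gja1 100065_r_at, at a log2 ratio of 0.07. With the pseudocount of 50, Dsg2 and 100065_r_at stood at 0.95 and 0.93 at 6 h. With the mean of vehicle and 1 h as the reference they stood at 0.72 and 0.71, and Gja1 100064_f_at at 0.58 at 1 h. All of these are under 2-fold. Without replicates, neighbours in this order cannot be told apart beyond error. With scaling to a common median, Perp reached a log2 ratio of 1.03 at 12 h, past 2-fold. With the 1 h array as the reference, Dsp stood at 0.99 at 12 h and Jup and Perp at 1.14 and 1.27, so the order of these 3 genes depended on the reference and, for Perp, on the scaling. In the step from 6 to 12 h, 1.75% of 7718 probe sets were 2-fold higher, and Dsp and the Dsc2 probe set 97768_at were among them, at 2.34-fold and 2.06-fold. In the step from 12 to 24 h, Perp at 2.15-fold, the Pkp1 probe set 97601_f_at at 2.06-fold and Gjb2 were.

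Other genes of the desmosome were 2-fold from vehicle at 24 h only within the time course. Of 13 listed, 7 were on the array and 6 were measured on at least 1 array. At 1, 6 and 12 h, 5 were measured and none was 2-fold from vehicle. Over all genes, 0.928%, 6.91% and 6.71% were higher and 0.381%, 9.10% and 7.55% lower at these times. With 5 genes, none called cannot be set apart from these shares, and Pkp3 lay too near the floor in vehicle to be called lower. At 24 h, 4 of the 6 measured were 2-fold higher, with a median log2 ratio of 1.22, or 0.63 with the floor at the 60th percentile. Over all genes, 3.69% were 2-fold higher at 24 h and the median was -0.04. The plakophilin 3 gene Pkp3 read 258.2 in vehicle and 1067 at 24 h, 4.13-fold higher. The desmocollin 1 gene Dsc1 was at least 2.60-fold higher, at 371.3 at 24 h, having been below the floor on every earlier array. Corneodesmosin (Cdsn), which sits in desmosomes of cornified layers, was 2.41-fold higher at 24 h after a value 1.89-fold lower than vehicle at 12 h. The periplakin gene Ppl had a log2 ratio of 1.18 at 24 h, and the more widely expressed Pkp2 and Pkp4 stood at -0.53 and -0.57; these 3 were named after their values were seen. Some members passed only through the 24 h array, so the median over them is a description.

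Of 20 other connexin and pannexin genes, 8 were on the array and 5 were measured on at least 1 array. At 1, 6 and 12 h, 3 were measured and none was 2-fold from vehicle. Over all genes, 0.928%, 6.91% and 6.71% were higher and 0.381%, 9.10% and 7.55% lower at these times. Gja4 and Gjc1, at 230.6 and 197.7 in vehicle, lay less than 2-fold above the floor and could not be called lower. Nor, at 24 h, could Gjb1 and Gjb6, below the floor in vehicle. Gjc1 and Gjb1 were named after their values were seen. At 24 h, 1 of 5 was higher and none lower, against 3.69% and 3.82% of all genes, with a median of -0.03 (0.70 with the floor at the 60th percentile). That gene was Gjb6 (connexin 30), which lay below the floor on every earlier array and read 572.6 at 24 h, at least 4.01-fold above vehicle. The endothelial connexin genes Gja4 and Gja5, also named after their values were seen, read 230.6 and 349.2 in vehicle and 40.4 and 342.5 at 24 h, which for Gja4 gives a fold of at least 1.61 lower.

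Partners of connexin 43 and genes of the other epithelial junctions had members past 2-fold in both directions. Of 8 partners listed, 7 were found and 5 measured at each time, and the scaffold gene Tjp1 (ZO-1), which binds the tail of connexin 43, was 2.70-fold lower at 6 h and 2.72-fold lower at 12 h, from 2374 to 877.8 and 874.0. The kinase gene Src, which phosphorylates connexin 43, was at least 2.11-fold higher at 1 h, and the median of the list at 24 h was -0.21. Of the adherens junction genes, 1 of 9 measured was 2-fold higher at 1 h (Ctnna2, at least 2.07-fold) and 1 of 8 lower at 24 h (Cdh11, 2.13-fold). The medians of that list were 0.05, 0.20, 0.14 and -0.06 over the time course. Over all genes, 0.928% were 2-fold higher and 0.381% lower at 1 h, and 9.10%, 7.55% and 3.82% lower at the later times. Of 7 tight junction genes measured, 1 was 2-fold higher and 2 lower at 6 h, against 6.91% and 9.10% of all genes. At 12 h, 1 was higher and 1 lower, against 6.71% and 7.55%. Cldn7 was 2.03-fold higher at 6 h and 2.02-fold at 12 h. Cldn3 was 2.13-fold lower at 6 h, and Tjp1 was again among the lower at both times. The medians of the tight junction list were -0.13, -0.41, -0.35 and -0.17. The 1 h calls of Src and Ctnna2 were both lost under the floor at the 60th percentile, scaling to a common median, quantile normalization and the mean of vehicle and 1 h as the reference. Plakoglobin's partner E-cadherin (Cdh1) had log2 ratios between 0.22 and 0.34 on these 4 arrays.

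The keratins to which desmosomes attach were 2-fold higher in larger number at each later time. Of 12 measured on at least 1 array, 5 were 2-fold higher at 6 h (6.91% of all genes), 7 at 12 h (6.71%) and 8 at 24 h (3.69%). None was 2-fold lower, but Krt1, Krt10 and Krt16, at 207.3, 229.3 and 19.9 in vehicle, could not be counted so. All of the 8 but Krt7 are keratins of stratified epithelium. Krt4, also a keratin of stratified epithelium, was not among them, at 1299 in vehicle and 1268 at 24 h (log2 ratio -0.03). Krt6a, Krt6b and Krt16, keratins of activated epithelium, were 41.6-fold, 47.4-fold and at least 77.7-fold higher at 24 h. The simple epithelium keratins Krt8, Krt18 and Krt19 had log2 ratios of 0.40, -0.23 and 0.57 at that time, while the basal keratins Krt5 and Krt14 lay below the floor on every array.

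Markers of whole cell types moved with these results, and their part in them was not tested. The summed signal of 15 uterine epithelium markers was 14617 in vehicle, and 12832, 14224, 15335 and 20554 on the later arrays in turn, with a list median log2 ratio of 0.45 at 24 h and 3 of 14 measured markers 2-fold higher, against 3.69% of all genes. Krt7 was 3.45-fold higher at 6 h, and Foxa2, a factor of uterine glands, at least 2.72-fold lower at 12 h. The sum of 13 stratified epithelium markers was 3954 in vehicle, and 3888, 5534, 7082 and 20282 on the later arrays, with 6 of 9 measured markers 2-fold higher at 24 h against the same 3.69%, among them Krt10 at 15.1-fold and Krtdap, below the floor at 104.3 in vehicle and at 2566 at 24 h. Of the defining markers of that type, Krt5, Krt14, Krt15 and Ivl lay below the floor on every array, and Trp63 read 290.0 in vehicle and 470.0 at 24 h.

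The smooth muscle list, of 8 genes, summed to 50824 in vehicle and between 40529 and 68871 on the other arrays of the time course, and Actg2 was 4.31-fold higher at 24 h while Smtn was 2.42-fold lower at 12 h. Of the 8, 2 were higher and 1 lower at 12 h, against 6.71% and 7.55% of all genes. At 24 h, 1 was higher and 0 lower, against 3.69% and 3.82%. The stromal list of 12 genes ranged from 37842 at 6 h to 86657 at 24 h, with Pdgfra 4.27-fold lower at 6 h and Dcn 4.02-fold lower at 12 h. At 6 h, 1 of 11 measured was 2-fold higher and 4 lower, against 6.91% and 9.10% of all genes. At 24 h, 3 of 12 were higher and 0 lower, against 3.69% and 3.82%. These 3, named after their values were seen, were Col1a1 (2.81-fold), Col1a2 (3.00-fold) and Col3a1 (2.21-fold). The endothelial list summed to between 5634 and 7819, with Vwf at least 4.37-fold and Cldn5 4.28-fold lower at 12 h. At that time 3 of its 10 genes were 2-fold lower and 0 higher, against 7.55% and 6.71% of all genes. The list median log2 ratio was -0.44. The leukocyte list summed to between 5971 and 8856. Cardiac and skeletal muscle markers summed to between 1202 and 3439, with Acta1 5.29-fold higher at 12 h. It was the only 1 of 4 measured there that was 2-fold higher, against 6.71% of all genes, and the list median log2 ratio was 0.02. Acta1 alone read 2566 of the sum of 3439 on that array.

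**Figure D3:**
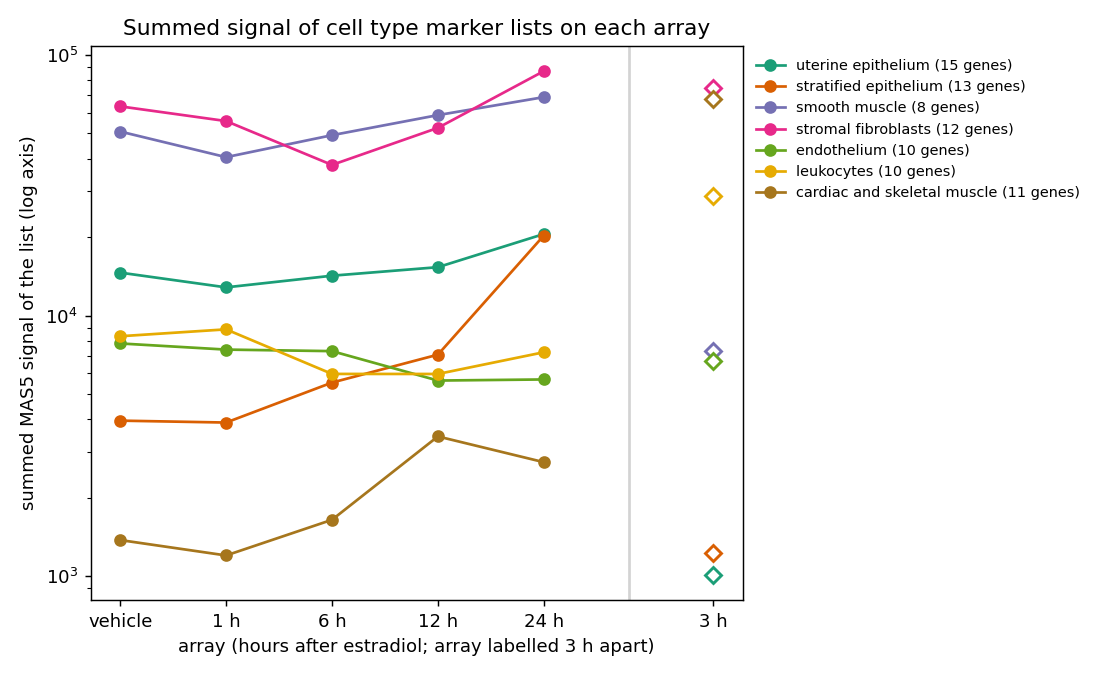
Summed MAS5 signal (log axis) of the genes of 7 cell type marker lists on the arrays for vehicle and 1, 6, 12 and 24 h (lines), and on the array labelled 3 h (open diamonds, right of the grey line); each point is 1 array. The stratified epithelium sum goes from 3954 in vehicle to 20282 at 24 h. The array labelled 3 h has epithelial sums of 1011 and 1225 and a cardiac and skeletal muscle sum of 67600.

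On the array labelled 3 h, 5 of the 14 member probe sets were at least 2-fold lower than vehicle and 2 were higher, against 12.9% and 11.8% of the 8201 probe sets measured. Of the 14, 10 were measured in this comparison. Dsp (94247_at) read 67.4, at least 15.0-fold below vehicle, and Perp read 167.6, 15.3-fold below it. Both Pkp1 probe sets lay below the floor, at 70.2 and 11.2, which is at least 5.69-fold and at least 2.74-fold below vehicle. Gjb2 read 163.0, 2.92-fold lower, and Jup 870.0, 1.76-fold lower. Dsc2, Dsg2 and Gjb5 lay below the floor in all their probe sets. The Gja1 probe sets went the other way, at 6162 and 884.7, 4.76-fold and 5.17-fold above vehicle and higher than on any other array.

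Cell type markers on that array also stood apart, and their part in the member values was not tested. Of 15 uterine epithelium markers, 2 reached the floor, against 12 to 14 on the other arrays, and their sum was 1011; Krt8, Krt18 and Krt19 read 106.8, 64.9 and 5.2. The stratified epithelium markers summed to 1225 and the smooth muscle markers to 7322, with Myh11 at 242.9 against 9706 in vehicle. The stromal homeobox gene Hoxa11, which marks the uterus along the female tract, read 14.6 against 2662. Skeletal muscle genes other than Myh2 were high, with Myh4 at 14211, Tnnt3 at 11968 and Ckm at 3342, against 1.3, 59.3 and 18.9 in vehicle. Of 11 cardiac and skeletal muscle markers, 8 were measured and 7 were 2-fold higher, against 11.4% of all genes. The skeletal myosin gene Myh2 and the heart genes Myh6 and Myl7 lay below the floor on every array. The heart gene Nppa read 243.0 against 378.6 in vehicle. The leukocyte markers summed to 28655 and the stromal list to 74729, the endothelial list to 6706. The actin control's ratio of 3' to 5' signal, a measure of RNA integrity, was 1.22 there and 1.13 to 1.25 elsewhere. The member values of the time course do not use that array except through the floor, and leaving it out left all 47 of them within 1.5-fold of the values given.

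For each member past 2-fold at 6, 12 or 24 h, read by its brightest probe set (97601_f_at for Pkp1), the 3 genes with the nearest profile were found by the Euclidean distance between log2 ratios at 4 times, among 1744 bright genes (1745 for Dsg2) whose signal varied at least 2-fold. The nearest to Gjb2 were Sprr1a, a cornified envelope protein, at a distance of 0.76, the secreted lipocalin gene Lcn2 at 0.89 and the keratin gene Krt17 at 0.94. Sprr1a read 713.0 in vehicle and 18269 at 24 h. Lcn2 was also the nearest to Dsc2, at 0.59, followed by the epithelial 14-3-3 gene Sfn at 0.92 and the prolyl isomerase gene Fkbp11 at 1.03. The nearest to Dsp were the proliferation gene Mki67 and the mitotic kinase gene Aurkb, both at 0.31, and Krtap3-1 at 0.39. The nearest to Perp were Ckmt1 at 0.40, Aurkb at 0.45 and the matrix gene Sparc at 0.48.

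The collagen gene Col1a1 and the cell cycle gene Cks2 were near both Jup (0.46 and 0.50, after Dmpk at 0.41) and Pkp1 (0.44 and 0.41, after Psapl1 at 0.31). The nearest to Gja1 were Hus1 at 0.08, Snx12 at 0.57 and Timm22 at 0.70, of which Hus1 and Snx12 lay below the floor in vehicle. So did Aurkb, Ckmt1 and Fkbp11, with Aurkb and Ckmt1 also below it at 1 h and Aurkb at 6 h, so the distances of these 5 genes depend on where the floor was set. The member Dsc2 also lay below the floor in vehicle, at 115.2, so the distances of its 3 nearest genes depend on the floor as well. The nearest to Dsg2 were Tex2 at 0.22, the transferrin receptor gene Tfrc at 0.26 and Tspan13 at 0.31. All profiles share the same vehicle array, and a profile over 4 arrays leaves many genes close to each other.

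**Figure D4:**
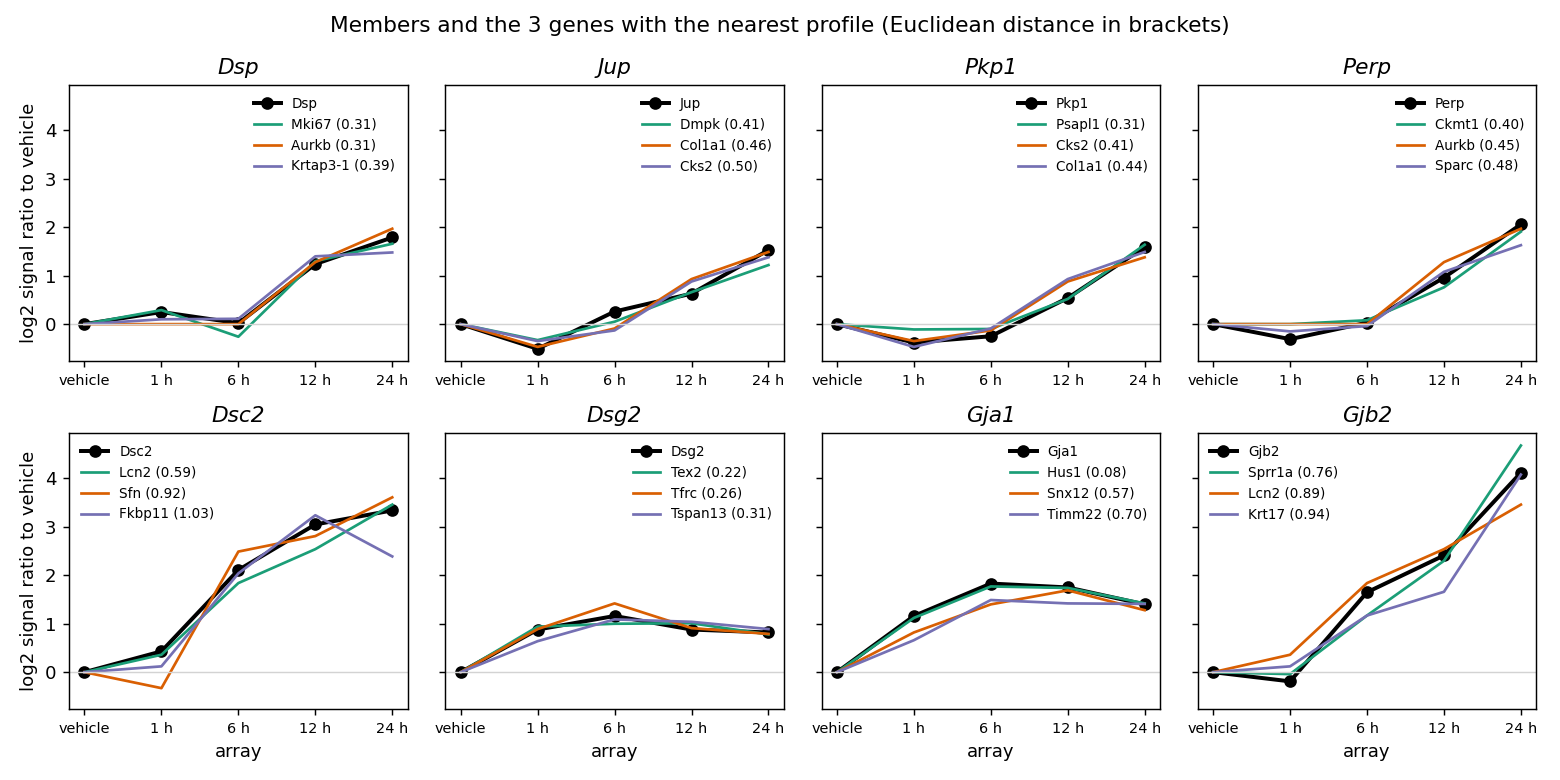
Log2 signal ratio to vehicle over the time course for the 8 members past 2-fold (black) and the 3 genes with the nearest profile to each (coloured, Euclidean distance over 4 times in brackets); points are single arrays. Each gene is read by its brightest probe set (97601_f_at for Pkp1). The profiles of Dsp, Jup, Pkp1 and Perp lie between -0.51 and 0.26 until 6 h and are highest at 24 h, Gja1 and Dsg2 are already at 1.16 and 0.88 at 1 h, and Gjb2 reaches 4.12 at 24 h.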

How the data were processed

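Whole uteri were profiled on 6 Affymetrix U74Av2 arrays, 1 per group, from pooled RNA, 20 µg of it labelled per array. The authors deposited MAS5 signal intensity on a linear scale, per the submitters' processing notes. Software version and background settings are not given in the sources used here. Controls (66 of 12488 probe sets) were left out. The array's annotation gave 10833 probe sets 1 symbol, 396 several and 1193 none, and gene identifiers matched 10817 in a RefSeq table of GRCm38.p6. Arrays were rescaled to the same 2% trimmed mean over the other 12422 probe sets, values below 142.8 (the 40th percentile) were raised to it, and log2 was taken (Python 3.11.15, pandas 2.3.3). The code was tested on simulated data. Lists read a gene by its brightest probe set, and 122 of 153 listed symbols were found.

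With 1 array per group no test was possible and no error is given, so the number of arrays limits the precision. Genes named besides the members are, per junction list, the 3 with the largest log2 ratio among those 2-fold away, per marker list 2, and the 3 nearest profiles, with other names marked as chosen after their values were seen. The markers given for the array labelled 3 h, the single keratins, the defining markers and E-cadherin were also chosen after their values were seen. The members and lists were chosen with earlier results of these data known. The alternatives were other floors, a pseudocount of 50, other scalings, other references, no array labelled 3 h, and a gene's median over its probe sets.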

Additional observations from a re-analysis of the deposited data

Results flagged for a closer look

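Member probe sets that were at least 2-fold lower than vehicle on the array labelled 3 h and at least 2-fold higher at 24 h were singled out because the times went opposite ways. On the array labelled 3 h and at 24 h in turn, the log2 ratios were -3.93 and 2.06 for Perp, and -1.55 and 4.12 for Gjb2. Dsp (94247_at) and Pkp1 lay below the floor on the array labelled 3 h, so their ratios there are bounds: -3.91 or lower for Dsp, against 1.79 at 24 h, and for Pkp1 -2.51 or lower against 1.59 (97601_f_at) and -1.45 or lower against 2.82 (99996_at). Each side is 1 array, and the difference between the times was not tested.

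The cardiac and skeletal muscle markers on the array labelled 3 h were singled out because they are a signal outside the time course: their summed signal was 67600 there and 1377 in vehicle.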

How the results depend on the processing

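No paired analysis was possible because each group had 1 array and no result came from a test. Over 8 alternatives fixed with the design and 1 chosen after seeing the data (the 1 h array as reference), 468 member log2 ratios were recomputed; a gene's median over its probe sets was run for lists only. Of these 435 moved by less than 1.5-fold, 33 by more, and no 2-fold difference turned its direction. The larger moves came with another floor, the pseudocount or the 1 h reference.

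The counts of the 14 member probe sets that moved by over 1.5 times were as follows. Those higher at 1 h went from 1 to 2 with the floor at the 20th percentile and to 0 with the mean of vehicle and 1 h as the reference. Those higher at 6 h went from 7 to 3 with the floor at the 60th percentile and to 4 with the 1 h array as the reference. Those lower on the array labelled 3 h went from 5 to 3 with the floor at the 60th percentile. The lost calls at 6 h with the 1 h reference were those of Dsg2 and both Gja1 probe sets.

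Of the 58 genes of the 6 junction lists, the counts at least 2-fold higher were 2, 6, 8 and 13 at 1, 6, 12 and 24 h. Those lower were 0, 2, 1 and 1, with 2 higher and 21 lower on the array labelled 3 h. Keratins made up 5, 7 and 8 of those higher at 6, 12 and 24 h. Over all measured genes, 0.928%, 6.91%, 6.71% and 3.69% were higher and 0.381%, 9.1%, 7.55% and 3.82% lower at 1, 6, 12 and 24 h. For the array labelled 3 h these shares were 11.4% and 13.0%. The 58 also include genes below the floor on both arrays compared. The shares belong to the main settings, and the counts that follow are again of the 58 genes. Under the floor at the 20th percentile, 10 were higher at 6 h, 2, 7, 6 and 3 lower at 1, 6, 12 and 24 h, and 4 higher on the array labelled 3 h. Under the floor at the 60th percentile, 0 were higher at 1 h, 0 lower at 24 h, and 1 higher and 11 lower on the array labelled 3 h. With the pseudocount, 4 were lower at 12 h and 2 at 24 h. With scaling to a common median, 0 were higher at 1 h and 1 lower at 6 h. With quantile normalization, 0 were higher at 1 h and 2 lower at 12 h. With the mean of vehicle and 1 h as the reference, 0 were higher at 1 h and 1 lower at 6 h. With the 1 h array as the reference, 1, 2 and 2 were lower at 6, 12 and 24 h. With a gene's median over its probe sets, 1 was lower at 6 h. Of 607 list medians recomputed, 16 moved by over 1.5-fold, all with another floor or the pseudocount, and none past 2-fold turned its direction. At 24 h the keratin median of 2.79 was 2.01 with the floor at the 20th percentile and 1.25 with the pseudocount, and the stratified epithelium median of 2.88 was 1.94 with the floor at the 60th percentile and 0.93 with the pseudocount. The causes were not tested. No scaling moved the median of all measured probe sets by over 0.1 at 1, 6, 12 or 24 h.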
